A study of Mus musculus with 24 samples.

Results

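The replication-dependent histone genes were taken as every row of the liver count table whose symbol begins with Hist, a digit and h, which gave 68 of 24015 genes. By class they were 6 linker histone H1 genes, 18 H2A, 19 H2B, 12 H3 and 13 H4 genes, and 1 of the H2B rows, Hist3h2bb-ps, is a pseudogene. The RefSeq table of GRCm38.p6 places 54 of them on chromosome 13 (the Hist1 cluster), 10 on chromosome 3, 3 on chromosome 11 and 1 on chromosome 6. These genes encode the core histones of the nucleosome and the linker histones, and dividing cells transcribe them in step with DNA replication. Their mRNAs are unspliced in most cases and end in a short stem-loop in place of a poly(A) tail. The stem-loop binding protein and the U7 particle form that end, and the mRNA is degraded when DNA synthesis stops. A few members also give a longer, polyadenylated mRNA, and the testis-type members serve male germ cells. Libraries made after removal of ribosomal RNA, as here, keep RNA without a poly(A) tail.

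Livers came from female B6C3F1 mice, bought at 5 to 6 weeks of age, that received furan in corn oil (8 mg/kg body weight per day) or corn oil alone by gavage for 21 days, with tissue taken 4 h after the last dose. Furan is a heat-formed food contaminant and a liver toxicant in rodents. Each liver was cut into 3 pieces, which were snap frozen, kept in formalin for 18 h before embedding in paraffin (FFPE 18 h), or kept in formalin for 3 weeks (FFPE 3 weeks). The groups were furan frozen, control frozen, furan FFPE 18 h, control FFPE 18 h, furan FFPE 3 weeks and control FFPE 3 weeks, with the same 4 furan animals (41 to 44) and the same 4 control animals (2, 3, 4 and 6) at each preservation. Frozen and fixed RNA were extracted with different kits, and 2 sections in place of 1 were used for FFPE 3 weeks, so that preservation, kit, input and piece of liver cannot be told apart.

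Libraries held 38.0 to 49.3 megacounts (1 megacount is 1000000 counts) in frozen, 22.9 to 28.1 megacounts in FFPE 18 h and 5.56 to 11.02 megacounts in FFPE 3 weeks tissue. The labels give RNA integrity numbers above 8.9 for frozen RNA and of 1.3 to 2.4 for FFPE RNA. All 10 hepatocyte markers listed were detected in each of the 6 groups, and their summed level was 74593 to 224344 CPM (counts per megacount). Levels are CPM scaled by TMM factors over all 24 libraries, and log2 fold changes are given ± SE. A gene was called when edgeR's quasi-likelihood test, fitted on all genes of the comparison, gave an adjusted p (Benjamini-Hochberg) below 0.05. In bulk liver, fewer cells of a type and less RNA per cell cannot be told apart.

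The sequences that mark the group are the stem-loop at the end of the mRNA and short motifs of the promoter. The consensus of the histone stem-loop was found in the longest coding GENCODE vM21 transcript of 45 of the 68 members. Among 21810 other protein-coding genes, where a match in any coding transcript counted, it was found in 30 (0.138%). For 16 members there was no 3′ UTR to search. Among them the pseudogene Hist3h2bb-ps has no annotated coding part, and its 465 bases held no match. In the others the transcript model stopped at the stop codon or within 2 bases of it, so the stem-loop could not be looked for. In the remaining 7 members the longest coding model has a 3′ UTR without the consensus, among them Hist1h2bc, Hist2h2be and Hist1h1a. Their other transcripts were not searched. The 3′ UTR is only 48 bases in the Hist1h1a model and 37 in that of Hist2h3b, so these models may stop before a stem-loop. In the next lines the 16 bases of the stem-loop are in capitals with 5 bases on either side, for members whose levels are described later.

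Hist1h1e: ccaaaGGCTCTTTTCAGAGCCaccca
Hist1h1c: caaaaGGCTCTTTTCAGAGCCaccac
Hist1h3f: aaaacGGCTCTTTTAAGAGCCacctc
Hist1h4d: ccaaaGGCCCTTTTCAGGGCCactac
Hist4h4: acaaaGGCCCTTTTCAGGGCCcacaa
Hist1h4i: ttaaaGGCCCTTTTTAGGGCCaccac

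The stem-loop of Hist1h1e and Hist1h1c was shared by 25 members of the H1, H2A, H2B and H3 classes. The form in Hist1h4d and Hist4h4 was shared by 7 members, all of class H4, and 8 forms were found in all.

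Promoters (the 250 bases before the RefSeq start) were matched for 62 members. The H1 box, AAACACA on either strand, was in 5 of 6 H1 promoters and in 6.2% of all promoters in the table. CCAAT was in 6 of 6 H1, 18 of 18 H2A and 16 of 16 H2B promoters, in 8 of 10 H3 and in 3 of 12 H4 promoters, against 33.8% of all promoters. The octamer ATTTGCAT was in 7 of 18 H2A and 6 of 16 H2B promoters, in 0 of 6 H1, 0 of 10 H3 and 0 of 12 H4 promoters, and in 1.6% of all. Some H2A and H2B windows overlap on opposite strands, such as those of Hist1h2bf and Hist1h2ad or of Hist1h2bg and Hist1h2ae. The same sites then count for both genes, so these promoters are not separate observations. TATAAA was in 29 of 62 members and in 12.4% of all. The promoters of 3 members that stood higher with furan follow, with these motifs in capitals (ATTGG is CCAAT on the other strand). They are from GRCm38.p6, Hist1h1b at chr13:21780626-21780875 (minus strand), Hist1h1a at chr13:23763418-23763667 (plus strand) and Hist2h2bb at chr3:96269450-96269699 (plus strand).

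Hist1h1b: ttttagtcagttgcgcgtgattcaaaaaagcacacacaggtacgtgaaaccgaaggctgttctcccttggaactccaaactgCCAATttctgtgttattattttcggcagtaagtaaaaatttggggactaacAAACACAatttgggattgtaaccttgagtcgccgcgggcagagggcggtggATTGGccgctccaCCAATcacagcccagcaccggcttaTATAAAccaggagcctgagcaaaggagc
Hist1h1a: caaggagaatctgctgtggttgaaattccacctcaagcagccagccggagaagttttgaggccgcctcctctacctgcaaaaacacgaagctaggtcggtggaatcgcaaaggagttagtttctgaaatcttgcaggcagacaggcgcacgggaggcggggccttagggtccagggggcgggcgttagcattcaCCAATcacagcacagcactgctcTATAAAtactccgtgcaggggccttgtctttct
Hist2h2bb: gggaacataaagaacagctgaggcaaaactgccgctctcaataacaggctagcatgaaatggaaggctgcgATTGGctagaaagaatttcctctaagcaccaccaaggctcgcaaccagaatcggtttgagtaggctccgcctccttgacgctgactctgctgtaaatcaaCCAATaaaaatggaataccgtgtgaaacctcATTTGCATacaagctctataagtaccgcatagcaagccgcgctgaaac

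The Hist1h1b window holds the H1 box, the TATA motif and the CCAAT motif on both strands, and that of Hist1h1a holds the TATA and CCAAT motifs. The Hist2h2bb window holds the CCAAT motif on both strands and the octamer. Hist2h2bb was higher with furan in frozen tissue but missed the threshold in edgeR. The promoter of Hist1h4k, which was called higher in frozen tissue, holds the TATA motif and no CCAAT, H1 box or octamer.

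Few members made up most of the histone signal. Over the 24 libraries Hist1h2bc, an H2B gene, gave 36.1% of the summed member CPM, and the H1 genes Hist1h1e, Hist1h1c and Hist1h1d gave 19.1%, 9.40% and 4.29%. In 8 members every library had a count, and in 10 members no library had one. A count of 0 over all libraries allows a level of up to 0.0048 CPM (3 counts), a limit that covers counting error only. Of the 10 members at 0, 9 had no 50-base stretch of coding sequence that is not also in another gene, and only 3 of the 12 members without such a stretch had counts, at most 44 in all. The tenth was the testis-type H2A gene Hist1h2aa, 97.6% of whose coding 50-base stretches are unique. How reads that match several genes were counted is not stated in the sources used here, so values of near-identical members are uncertain.

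**Figure D1:**
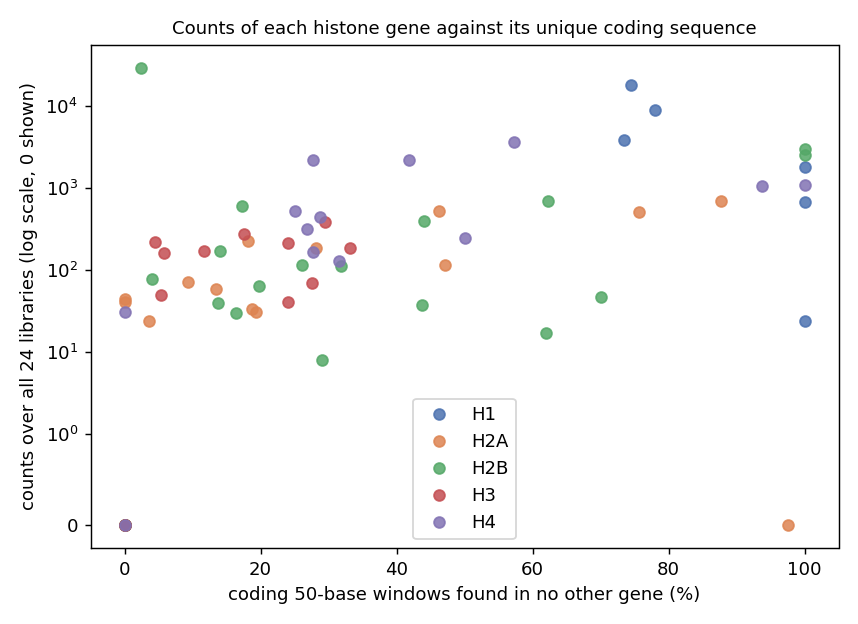
Counts of the 68 members summed over the 24 libraries (log scale, with 0 shown at the bottom) against the share of 50-base coding stretches found in no other gene, coloured by class. At a share of 0, 9 of 12 members had no count, while Hist1h2bc, with 2.4% unique coding sequence and a 742-base 3′ UTR, had the most counts.

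The other testis-type members were low or uncertain. Hist1h1t, the testis linker histone, had 9 counts in furan frozen and 1 in control frozen libraries, 14 in furan FFPE 18 h and 0 in the other groups, and 12 of the 14 were in furan animal 41. Hist1h2ba, the testis H2B, had 1.41 ± 0.15 CPM in furan frozen and 2.40 ± 2.57 CPM in control frozen livers (SD, n = 4 each). Of its 50-base coding stretches 62.3% are unique, and the others are shared most with Hist1h2bj.

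Levels of different genes were compared per kilobase of annotated length. In furan frozen livers Hist1h2bc stood at 56.5 ± 6.01 CPM per kilobase, ahead of Hist1h1e at 49.0 ± 10.2, Hist1h1c at 26.6 ± 4.38, Hist2h2bb at 23.6 ± 4.88 and Hist1h4d at 20.9 ± 5.29 (SD, n = 4). In control frozen livers Hist1h1e stood at 57.7 ± 23.3, Hist1h2bc at 42.4 ± 8.99, Hist1h1c at 38.4 ± 41.7 and Hist1h4d at 20.9 ± 8.40. Neighbours in both orders differed by less than the larger of their SDs, apart from Hist1h1e and Hist1h1c in furan livers. Hist1h1e lies within the annotated span of Hist1h2be on the same strand, so reads of the pair may have been split between them.

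The frozen library of control animal 3 stood apart from the other 3 frozen controls. Its summed member level was 293 CPM, against 165, 168 and 119 CPM in control animals 2, 4 and 6, and 168 to 212 CPM in the furan frozen libraries. Hist1h1c was at 72.9 CPM there and at 13.1, 16.7 and 8.55 CPM in the other frozen controls, and Hist1h1d at 25.3 against 4.09, 6.00 and 3.09 CPM. Of 38 members with 20 or more counts in the frozen controls, 26 were highest in this library, as were 39.4% of all genes with as many counts. Another 6 of the 38 were lowest there, among them Hist1h2bc (40.5 CPM, against 42.9 to 63.7 CPM in the other frozen controls). The FFPE 18 h piece of the same liver had a summed level of 117 CPM, among 108, 121 and 89.0 CPM in the other controls.

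**Figure D2:**
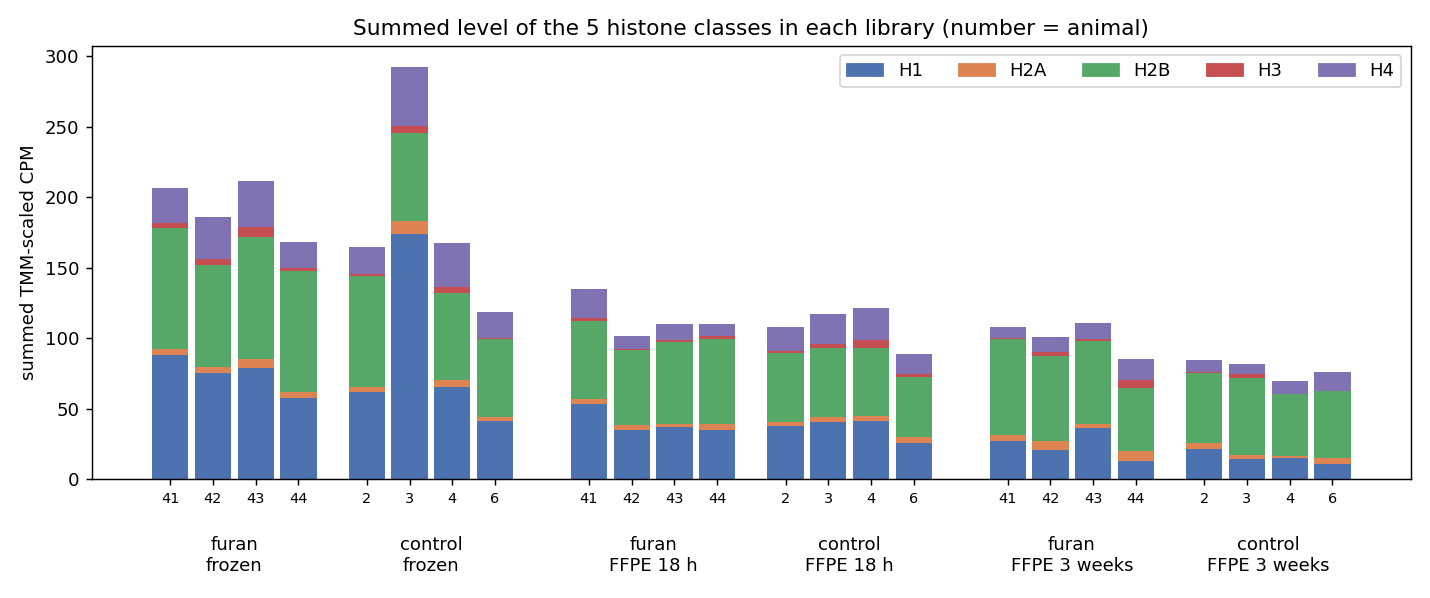
Summed TMM-scaled CPM of the H1, H2A, H2B, H3 and H4 members in each of the 24 libraries, furan animals (41 to 44) left of control animals (2, 3, 4 and 6) at each preservation. Frozen libraries reach 119 to 293 CPM, with control animal 3 the highest, and FFPE libraries 69.8 to 135 CPM.

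The first comparison asked which histone genes furan changed in frozen liver. Hist1h1b and Hist1h4k rose and no member fell. Hist1h1b, which encodes a linker histone (RefSeq H1f5), was at 1.84, 2.28, 2.26 and 2.23 CPM in furan livers and at 1.01, 0.918, 0.843 and 0.560 CPM in control livers. The groups did not overlap, and the log2 fold change was 1.37 ± 0.27 (edgeR adjusted p = 0.0243). Hist1h4k, an H4 gene, was at 0.445, 0.512, 0.368 and 0.502 CPM in furan livers and at 0.145, 0.063, 0.124 and 0.059 CPM in control livers. All furan livers were again above all controls, on 72 and 14 counts in all, with a log2 fold change of 2.17 ± 0.51 (edgeR adjusted p = 0.0457). Only 27.7% of the coding 50-base stretches of Hist1h4k are unique to it, against 100.0% for Hist1h1b. Furan libraries held 14 to 22 counts of Hist1h4k each and control libraries 2 to 5, so it passed the low-count filter through the furan group. Its call is therefore not independent of that filter, and without the filter its edgeR adjusted p was 0.0966.

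In this comparison 34 of 68 members passed the filter on low counts, 2 were called higher and 0 lower (6 higher and 2 lower at an unadjusted p below 0.05), and background shares over all 14122 genes were 1.57% higher and 1.2% lower. The median log2 fold change of the 34 was 0.01, and that of all genes -0.01. By class, 1 of 5 tested H1 and 1 of 11 H4 members were higher, and none of 5 H2A, 7 H2B and 6 H3 members passed. DESeq2 called 4 members, the same 2 with Hist1h1a and Hist2h2bb, and a fit over all 24 libraries called 0.

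Hist1h1a and Hist2h2bb missed the threshold in frozen tissue although their groups did not overlap. Hist1h1a, another linker histone (H1f1), was at 5.70, 5.03, 6.65 and 6.35 CPM in furan livers and at 1.28, 4.24, 2.65 and 1.09 CPM in control livers. The highest control value was that of animal 3, and the log2 fold change was 1.36 ± 0.37 (edgeR adjusted p = 0.0818, DESeq2 adjusted p = 0.00605). Hist2h2bb, an H2B gene, was at 7.15, 8.19, 11.5 and 9.11 CPM in furan livers and at 5.91, 6.05, 4.84 and 4.07 CPM in control livers (log2 fold change 0.79 ± 0.20, edgeR adjusted p = 0.0635, DESeq2 adjusted p = 0.00632). Without control animal 3 edgeR called both, with adjusted p of 0.000895 for Hist1h1a and 0.0098 for Hist2h2bb, beside Hist1h1b and Hist1h4k. With any other library left out it called neither (adjusted p 0.118 to 0.212 for Hist1h1a and 0.0711 to 0.190 for Hist2h2bb). Neither was called by edgeR after thinning to equal depth (0.0975 and 0.215) or in a fit over all 24 libraries (0.513 and 0.838).

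The more abundant H1 genes were not called in frozen tissue, and the sign of their estimates changed when control animal 3 was left out. Hist1h1c was at 21.7, 20.7, 20.2 and 14.6 CPM in furan livers, against 13.1, 72.9, 16.7 and 8.55 CPM in control livers. The groups overlapped, and the log2 fold change was -0.52 ± 0.54 (edgeR adjusted p = 0.643). The log2 fold change was -0.06 ± 0.56 for Hist1h1d (adjusted p = 0.966) and -0.23 ± 0.25 for Hist1h1e (adjusted p = 0.662). Without control animal 3 all 3 estimates were above 0, at 0.59 for Hist1h1c (edgeR adjusted p = 0.157), 1.06 for Hist1h1d (adjusted p = 0.0535) and 0.07 for Hist1h1e (adjusted p = 0.879). Hist1h2bc, the most abundant member, was at 71.0, 55.2, 67.5 and 67.8 CPM in furan livers and at 63.7, 40.5, 49.0 and 42.9 CPM in control livers. Its groups overlapped, with a log2 fold change of 0.42 ± 0.15 (edgeR adjusted p = 0.174).

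Both calls in frozen tissue changed with single libraries. Hist1h1b was not called when control animal 4 (edgeR adjusted p = 0.0722), control animal 6 (0.0611), furan animal 42 (0.0767), furan animal 43 (0.0859) or furan animal 44 (0.0884) was left out, and its log2 fold change was 1.22 to 1.47 over the 8 fits with a library left out. Hist1h4k was called only when control animal 3 was left out (edgeR adjusted p = 0.0462), and lay between 0.0657 and 0.160 without control animal 2, 4 or 6 or without furan animal 41, 42, 43 or 44.

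**Figure D3:**
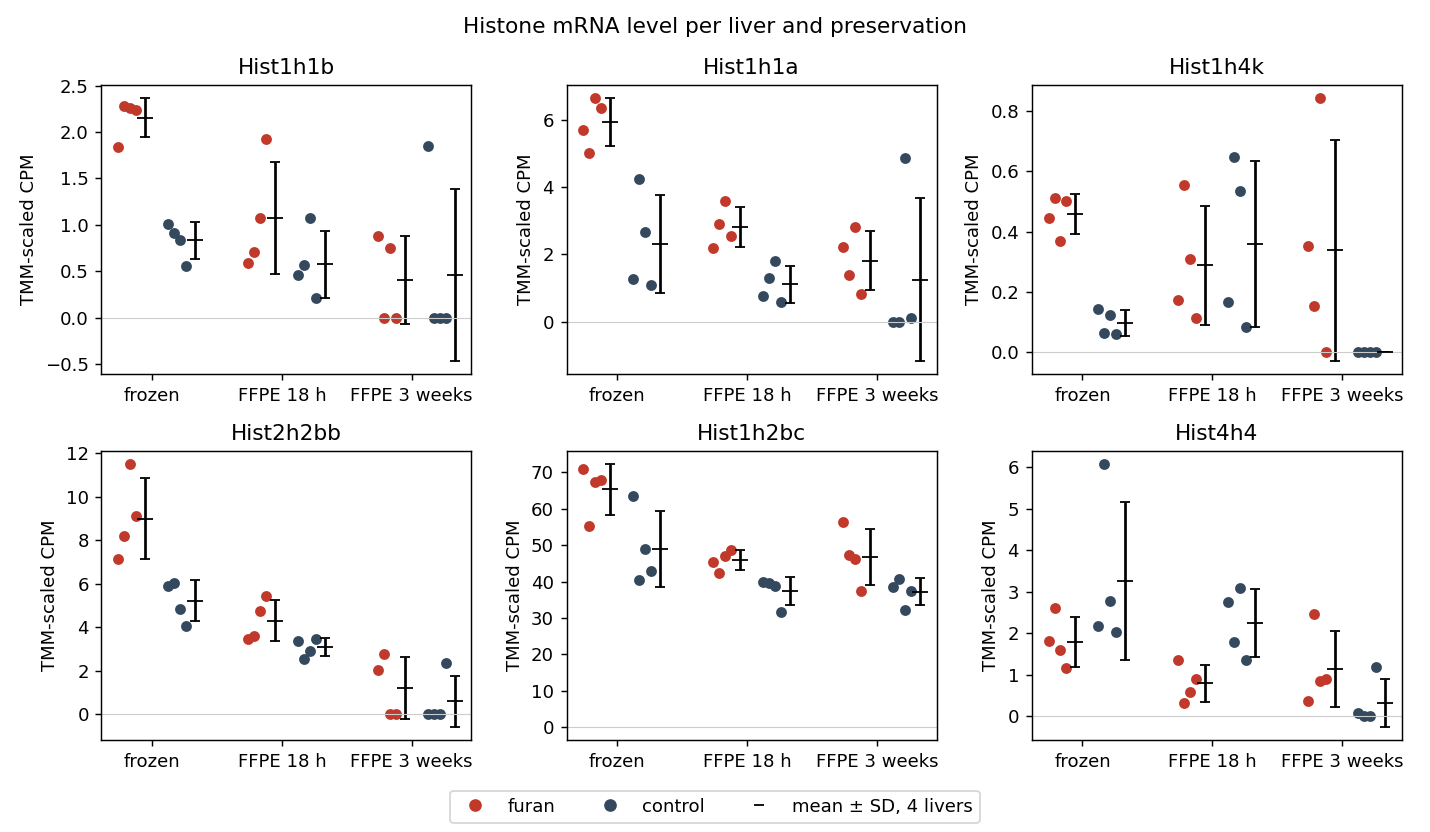
TMM-scaled CPM of 6 members in each liver, furan left of control at each preservation, with the mean ± SD of 4 livers beside the points. Furan frozen livers lie above control frozen livers for Hist1h1b, Hist1h1a, Hist1h4k and Hist2h2bb. In FFPE 3 weeks tissue several groups have livers at 0 beside 1 or 2 with counts.

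Genes of the cell cycle, in which histone mRNA is made, were measured beside the members. Of 42 genes of DNA replication and S phase, 3 rose and 1 fell with furan in frozen tissue, with a median log2 fold change of 0.33. The proliferation marker Mki67 rose by 1.12 ± 0.22 (edgeR adjusted p = 0.024) and the helicase subunit Mcm6 by 0.99 ± 0.22 (adjusted p = 0.0391), and Mcm7 of the same helicase by 0.61 ± 0.14 (adjusted p = 0.0432), while the thymidine kinase Tk1 fell by 0.72 (log2, SE 0.17, adjusted p = 0.0436). All 4 calls were lost in 4 to 7 of the 8 fits with a library left out, Mki67 without control animal 6 or without furan animal 42, 43 or 44. Of 20 mitosis genes 5 rose and 0 fell, with a median of 1.22, led by the mitotic cyclin Ccnb2 at 1.85 ± 0.30 (edgeR adjusted p = 0.0103, and 0.0514 without furan animal 44). The other 4 were less stable, with Cenpf lost in 5 of 8 fits with a library left out, Kif11 in 6, and Aurkb and Tpx2 in 7 (called only without control animal 3). Mitosis genes higher with furan numbered 6 of 19 in FFPE 18 h tissue (median 0.78), with Tpx2 called in all 8 such fits. In FFPE 3 weeks tissue edgeR called 0 of 15 (median 0.67, 1 at an unadjusted p below 0.05, DESeq2 0). In frozen tissue the summed level of the list was 46.0 to 92.6 CPM in furan and 26.2 to 38.6 CPM in control frozen libraries. The summed level of the S phase list was 345 to 470 CPM in furan and 385 to 413 CPM in control frozen libraries, so its groups overlapped. DESeq2 called 8 S phase genes higher and 1 lower, and 12 mitosis genes higher. These lists had been compiled with earlier results of these data known.

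The factors that make the histone mRNA end or load histones showed no call with furan in frozen tissue. By edgeR 0 of 17 tested genes of histone mRNA processing, among them the stem-loop binding protein Slbp, passed in either direction (median 0.14). The counts were also 0 of 10 replication-independent histone genes (median 0.05) and 0 of 20 histone chaperones (median 0.13). At an unadjusted p below 0.05 there were 4, 3 and 2 genes of these lists in the same order, and DESeq2 called 1, 1 and 0. In FFPE 18 h tissue 3 of 16 processing genes rose, which were Ncbp1 of the cap-binding complex (0.36 ± 0.08, edgeR adjusted p = 0.0054), Lsm1 (0.47 ± 0.13, adjusted p = 0.0194) and Npat, the coactivator of histone gene transcription (0.30 ± 0.10, adjusted p = 0.0405). Of 20 histone chaperones 2 rose there, Hira (0.34 ± 0.09, edgeR adjusted p = 0.0104, called in all 8 fits with a library left out) and Ssrp1 (0.28 ± 0.07, adjusted p = 0.015, lost without control animal 3 or furan animal 44). In frozen tissue 1.57% of all tested genes were called higher, against 7.82% in FFPE 18 h tissue, and 2 of 20 lies near the latter share. Npat was lost when control animal 2 or 4 or any furan animal was left out, and Lsm1 without control animal 2 or 3 or furan animal 42 or 44. Among replication-independent histones H3f3b rose there by 0.50 ± 0.08 (edgeR adjusted p = 0.000403) and H1f0 fell by 0.34 (SE 0.08, adjusted p = 0.00899), and in FFPE 3 weeks tissue H3f3b rose by 0.73 ± 0.14 (adjusted p = 0.00164).

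Fixed pieces of the same livers were compared in the same way. In FFPE 18 h tissue Hist1h1a and Hist1h2bc rose with furan and Hist4h4 fell. Hist1h1a was at 2.18, 2.90, 3.58 and 2.56 CPM in furan livers and at 0.751, 1.29, 1.81 and 0.587 CPM in control livers, with no overlap (log2 fold change 1.34 ± 0.34, edgeR adjusted p = 0.0124). Hist1h2bc was at 45.4, 42.3, 47.1 and 48.7 CPM in furan livers and at 39.7, 39.6, 38.7 and 31.7 CPM in control livers. Here the groups did not overlap either, at a log2 fold change of 0.30 ± 0.08 (edgeR adjusted p = 0.0206). Hist4h4, the H4 gene on chromosome 6, was at 1.35, 0.317, 0.578 and 0.904 CPM in furan livers and at 2.75, 1.79, 3.09 and 1.34 CPM in control livers. Furan animal 41 reached the lowest control, and the log2 fold change was -1.48 ± 0.42 (edgeR adjusted p = 0.022).

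Of 68 members 22 were tested in FFPE 18 h tissue, 2 were higher and 1 lower, while 7.82% of all tested genes were higher and 7.72% lower. The median log2 fold change of the 22 was 0.16 and that of all genes was -0.00254. The 5 H1 members had a median of 0.55, with 1 called, and the 7 H4 members a median of -0.73, with 1 called. Hist2h2bb was again higher in all furan livers than in all controls, at 0.49 ± 0.22 (edgeR adjusted p = 0.141). DESeq2 called 5 members, and without furan animal 41 edgeR called 7, adding Hist1h1e, Hist1h4d, Hist1h4h and Hist2h4. Without furan animal 43 it called 0, with adjusted p of 0.0552 for Hist1h1a, 0.069 for Hist1h2bc and 0.0652 for Hist4h4. Hist1h2bc was also lost without control animal 6 (0.0741) or furan animal 44 (0.0813), and Hist4h4 without control animal 2 (0.0604), control animal 4 (0.0804) or furan animal 42 (0.052).

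In FFPE 3 weeks tissue 12 members could be tested and edgeR called 0 of them, against 2.58% of all genes. At an unadjusted p below 0.05 there was 1 of 12, Hist1h1d, and DESeq2 also called 0. Hist1h1d was at 11.03, 3.86, 5.33 and 3.09 CPM in furan livers and at 1.26, 1.83, 1.93 and 0.966 CPM in control livers. The groups did not overlap, and the log2 fold change was 1.97 ± 0.81 (edgeR adjusted p = 0.261). A fit over all 24 libraries called 2 members, Hist1h1d and Hist1h4k, and Hist1h4k was at 0 in all control FFPE 3 weeks libraries.

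**Figure D4:**
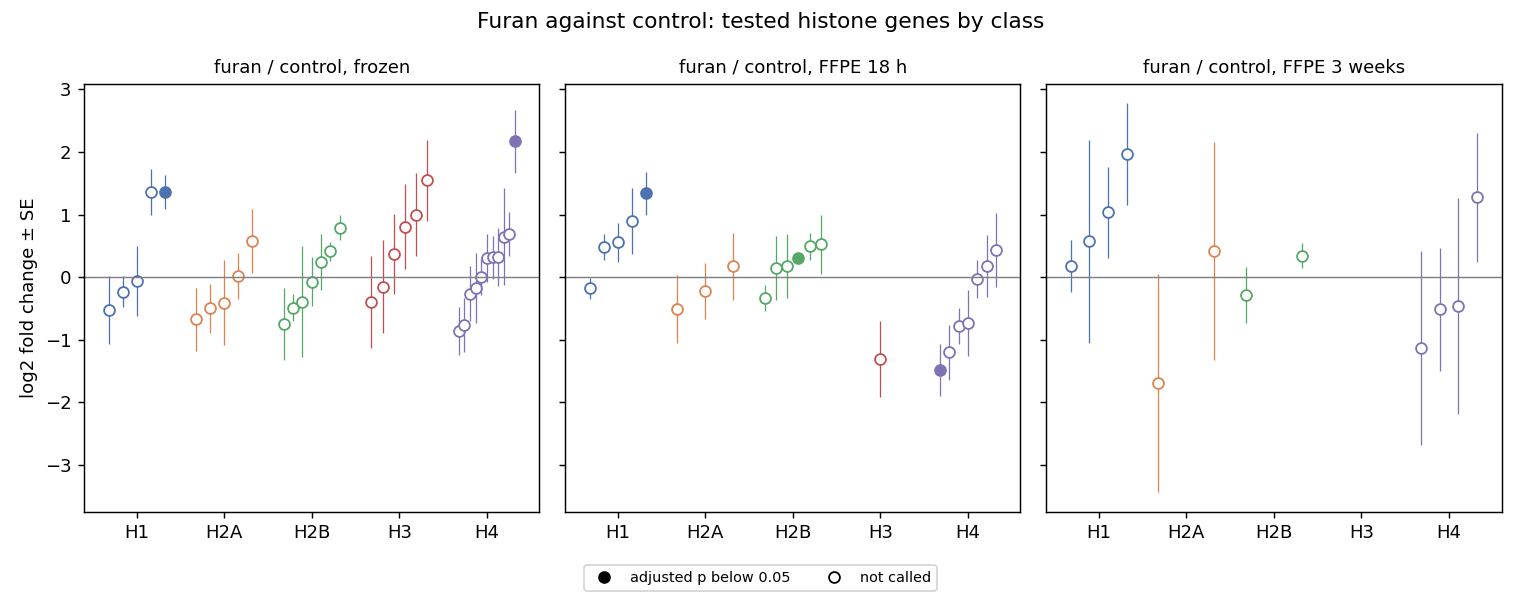
Log2 fold change (furan over control, ± SE) of the members tested at each preservation, by class, with filled points for an edgeR adjusted p below 0.05. Filled points are 1 H1 and 1 H4 member in frozen tissue, 1 H1, 1 H2B and 1 H4 member in FFPE 18 h tissue and none in FFPE 3 weeks tissue, where 12 members could be tested.

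The furan effect itself was compared between preservations as an interaction. For FFPE 18 h minus frozen, edgeR called 0 of 35 members and 0.0% of all genes, with 2 of 35 at an unadjusted p below 0.05 and 0 called by DESeq2. For FFPE 3 weeks minus frozen it called 0 of 30 members and 0.0% of all genes (3 at an unadjusted p below 0.05, DESeq2 0), and for FFPE 3 weeks minus FFPE 18 h 0 of 23 members and 0.0% of all genes (2 at an unadjusted p below 0.05, DESeq2 0). The difference between FFPE 18 h and frozen was -0.01 ± 0.73 for Hist1h1a, -0.45 ± 0.59 for Hist1h1b, -0.10 ± 0.18 for Hist1h2bc, -0.61 ± 0.58 for Hist4h4 and -2.47 ± 0.93 for Hist1h4k (log2, edgeR adjusted p = 1.00 for each). Hist1h4k and Hist1h3f were the 2 members at an unadjusted p below 0.05, and the others in the later contrasts were Hist1h1d, Hist1h3a and Hist1h3f, and Hist1h4i and Hist4h4. In FFPE 18 h tissue Hist1h4k was at 0.173, 0.556, 0.308 and 0.113 CPM in furan livers and at 0.167, 0.647, 0.535 and 0.084 CPM in control livers, where the groups overlapped.

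Fixation was compared over both treatments, 8 livers at each preservation. After 18 h of formalin 17 of the 35 tested members fell relative to frozen tissue and 0 rose (also 0 at an unadjusted p below 0.05 and 0 by DESeq2), against 27.3% of all tested genes lower and 26.6% higher. The median log2 change of the members was -0.80, and that of all genes was 0.01. The low-count filter asks for counts in only part of the libraries, so low members could be tested through their frozen libraries alone. Hist1h2ac, for example, had 7 to 63 counts in each frozen and 0 to 7 in each FFPE 18 h library. The fall of such members is partly set by the filter. All 5 tested H1 members fell, as did 5 of 7 H2B and 6 of 10 H4 members, against 1 of 6 H2A and 0 of 7 H3 members. The H3 members had a median of -0.65 with all 7 estimates below 0, on few counts. Counts of members lower were 10 when furan animal 42 was left out, 8 in a fit over all 24 libraries and 9 in libraries thinned to equal depth, where 12 members were tested.

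Hist1h1e, the second most abundant member, fell after 18 h. In furan livers it was at 29.9, 17.5, 20.1 and 17.4 CPM after 18 h of formalin and at 48.3, 38.3, 37.9 and 28.8 CPM in frozen pieces, and in control livers at 25.7, 25.7, 26.3 and 19.2 CPM and at 42.2, 70.7, 39.5 and 27.9 CPM. All 8 livers were lower in the fixed piece, and the log2 change was -0.87 ± 0.17 (edgeR adjusted p = 0.000256). The log2 change was -0.92 ± 0.14 for Hist2h2bb (edgeR adjusted p = 1.71e-05), -1.396 ± 0.38 for Hist1h1c (adjusted p = 0.00689), -1.37 ± 0.40 for Hist1h1d (adjusted p = 0.00928) and -0.93 ± 0.22 for Hist1h4d (adjusted p = 0.00125). These were lower in 8 of 8 livers, as was Hist1h2bc, which fell by 0.45 (SE 0.09, edgeR adjusted p = 0.00026). Hist2h2be, an H2B gene with a long 3′ UTR, had a log2 change of 0.01 ± 0.14 (edgeR adjusted p = 0.963).

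Of the 17 calls, 10 held in all 8 fits with an animal left out, among them all those named here. Hist1h1b was lost without animal 2, 41, 42 or 43, and Hist4h4 without animal 3 or 42.

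After 3 weeks of formalin 13 of 30 tested members fell relative to frozen tissue and 1 rose, against 25.8% lower and 23.0% higher over all genes. The median of the members was -1.59, and that of all genes was -0.02. Here too some low members, among them Hist1h2ac and Hist1h2ba, passed the filter through their frozen libraries, and their fall is partly set by it. For 4 of the 13, Hist1h3a, Hist1h3f, Hist1h4i and Hist1h2ac, a treatment group had no count after 3 weeks, so that the fitted change depends on the prior count. With such groups set to 3 counts over the group, the median difference of log2 group means was -1.51. Of the 13 calls, Hist1h3a held only without animal 44 and Hist1h3f only without animal 2, Hist4h4 was lost without animal 3 or 41, and the other 10 held in all 8 fits with an animal left out.

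By class the falls after 3 weeks were 3 of 5 H1, 1 of 4 H2A, 3 of 7 H2B, 2 of 5 H3 and 4 of 9 H4 members. Hist1h1e was at 9.97, 8.49, 17.9 and 6.11 CPM in furan and at 14.0, 9.34, 5.26 and 9.23 CPM in control FFPE 3 weeks pieces, below all frozen pieces. Its log2 change was -2.03 ± 0.23 (edgeR adjusted p = 5.54e-08). Hist1h4d was at 3.26, 3.09, 1.31 and 1.43 CPM in furan and at 3.53, 2.00, 2.31 and 5.26 CPM in control FFPE 3 weeks pieces, against 9.63, 8.40, 10.2 and 5.42 CPM in furan and 6.52, 12.95, 8.85 and 5.28 CPM in control frozen pieces. The preservations did not overlap, at a log2 change of -1.61 ± 0.31 (edgeR adjusted p = 0.000106).

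Hist1h2ba had 1 count in furan and 2 in control FFPE 3 weeks libraries, against 223 in furan and 320 in control frozen libraries. Its log2 change of -5.50 ± 0.99 (edgeR adjusted p = 5.13e-05) therefore rests on 3 counts in 8 fixed libraries. Hist1h1c fell by 2.53 (SE 0.43, edgeR adjusted p = 7.67e-05), with 2.72 to 9.73 CPM in furan and 0.859 to 4.20 CPM in control FFPE 3 weeks livers.

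Hist2h2be was the member that rose. In furan livers it was at 8.12, 9.72, 7.30 and 4.15 CPM after 3 weeks of formalin and at 3.34, 3.31, 2.68 and 2.96 CPM in frozen pieces, and in control livers at 9.33, 12.1, 9.11 and 5.37 CPM and at 5.30, 3.26, 3.57 and 5.13 CPM. It was higher in the fixed piece of all 8 livers, though the ranges overlapped, at a log2 change of 1.17 ± 0.26 (edgeR adjusted p = 0.000564). Hist1h2bc fell by 0.42 (SE 0.11, edgeR adjusted p = 0.00363). Its share of the summed member CPM was 46.2 ± 4.55% in furan and 47.8 ± 2.14% in control FFPE 3 weeks libraries, against 34.1 ± 4.603% in furan and 29.4 ± 11.1% in control frozen libraries (SD, n = 4 each).

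Between the fixation times, 4 of 23 tested members were lower after 3 weeks than after 18 h and 1 was higher, against 17.5% lower and 14.9% higher over all genes. The members lower were Hist1h1e (-1.16 ± 0.21, edgeR adjusted p = 7.48e-05), Hist1h1c (-1.13 ± 0.30, adjusted p = 0.00501), Hist1h2ba (3 counts after 3 weeks, 141 after 18 h, adjusted p = 0.00484) and Hist1h4i (11 counts after 3 weeks, 123 after 18 h, adjusted p = 0.0307). The 11 counts of Hist1h4i were all in control animal 2, and the call held in 1 of 8 fits with an animal left out, the one without animal 2. Hist2h2be was the member higher, at 1.15 ± 0.25 (edgeR adjusted p = 0.000852).

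**Figure D5:**
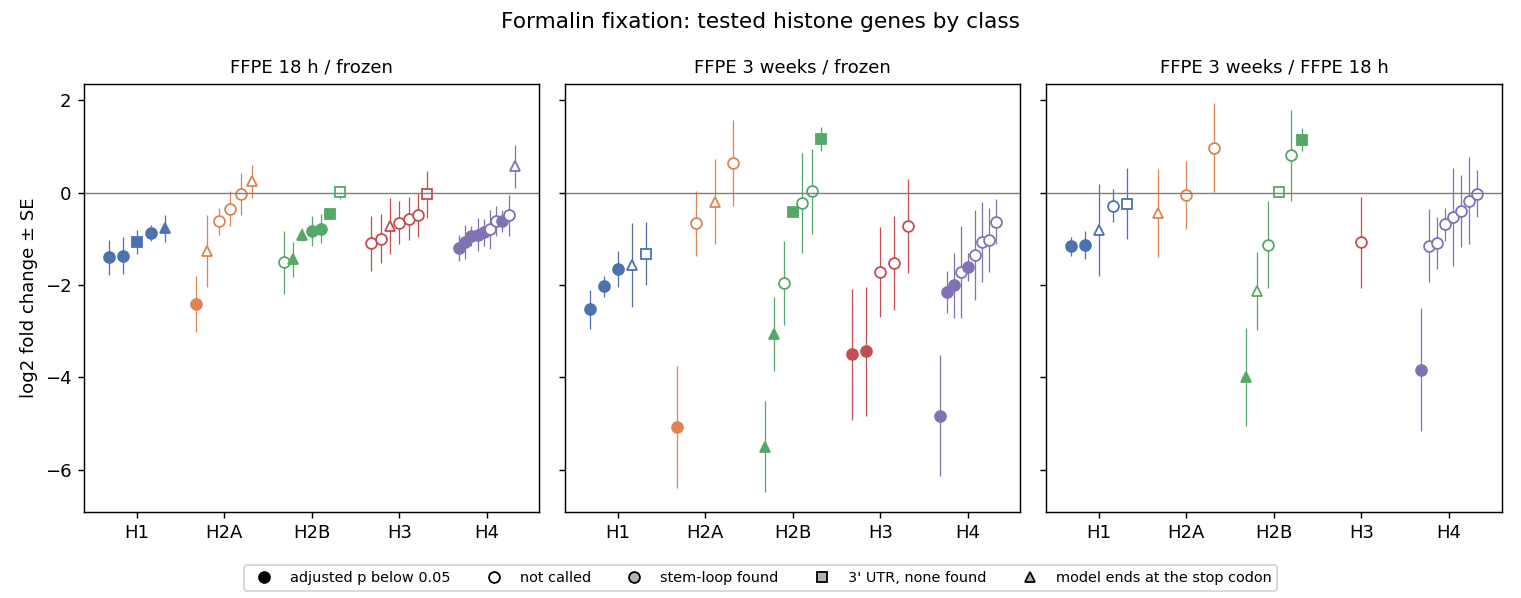
Log2 fold change (± SE) of the tested members by class, for FFPE 18 h over frozen, FFPE 3 weeks over frozen and FFPE 3 weeks over FFPE 18 h. Filled points had an edgeR adjusted p below 0.05, and the marker shape gives whether the stem-loop consensus was found in the transcript model. Most points lie below 0, and the filled square above 0 in the panels of 3 weeks is Hist2h2be.

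The changes with fixation were set beside the end of the mRNA and its length. Among tested members with a stem-loop in the model, 12 of 24 fell after 18 h (median -0.84) and 10 of 23 after 3 weeks (median -1.65). Among members with a 3′ UTR and no stem-loop found, 2 of 4 fell after 18 h (median -0.25), and after 3 weeks 1 of 3 fell and 1 rose (median -0.42). They include Hist1h1a and, after 18 h, Hist2h3b, whose models have a short 3′ UTR. The 3 tested members longer than 1000 bases, Hist1h2bc, Hist1h2be and Hist2h2be, had medians of -0.45 after 18 h and 0.03 after 3 weeks. The model of Hist1h2be holds a stem-loop with 1861 bases after it, so its place among the long members is uncertain. The median after 3 weeks is the value of Hist1h2be, which had 57 counts in furan animal 43 and 0 in the other furan animals there. Members of 500 to 1000 bases had medians of -0.82 after 18 h and -1.69 after 3 weeks (5 of 10 lower at each), and members of up to 500 bases had medians of -0.84 (10 of 22 lower) and -1.61 (7 of 17 lower).

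Over all tested genes the change also went with transcript length, but not in 1 direction. Genes whose longest transcript had up to 500 bases had a median of 0.94 after 18 h and 9.0% of them were lower, those of 500 to 1000 bases had a median of -0.52 and 48.9% lower, and those over 4000 bases a median of 0.20 and 14.4% lower. For members the shorter of the RefSeq span and the transcript model was used, since some models extend far past the stem-loop. For Hist1h2be both were long (37455 and 2506 bases), so this rule did not remove the extension. The part of length, mRNA end and RNA integrity in these results was not tested.

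The counts of low members were also read library by library. Of members with 8 to 40 counts in a group, 8 of 23 in furan and 9 of 14 in control FFPE 3 weeks tissue had all of them in 1 library. The same was so for 42.05% of all genes with such totals in furan and 44.5% in control tissue, and in the other groups for 0 to 4.0% of members and 1.88 to 5.3% of all genes. Hist1h3f, for example, had 11 counts in control animal 2 and 0 in the other 7 FFPE 3 weeks libraries. Members detected per library numbered 21 to 29 in furan and 16 to 22 in control FFPE 3 weeks tissue, against 53 to 56 in furan and 44 to 53 in control frozen tissue. After thinning to equal depth the numbers were 20 to 28 and 16 to 21 in FFPE 3 weeks tissue, and 39 to 44 and 33 to 40 in frozen tissue, furan before control in each.

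Several other gene lists also fell with fixation, some by nearly as much as the histone members after 18 h, and others did not. Lymphocyte markers had medians of 0.06 after 18 h and 0.12 after 3 weeks. Of 8 stellate markers 2 were higher and 4 lower after 18 h, and 3 higher and 3 lower after 3 weeks. Of 20 histone chaperones 5 were higher and 8 lower after 18 h, and 6 higher and 8 lower after 3 weeks. Hepatocyte markers were lower in 9 of 10 after 18 h (median -0.77) and in 10 of 10 after 3 weeks (median -1.33), and macrophage markers in 9 of 10 (median -0.78) and 8 of 10 (median -0.79), with 0 higher in either list. Of 42 S phase genes 17 were lower and 0 higher after 18 h (median -0.27), and after 3 weeks 13 of 41 were lower and 2 higher (median -0.52). Of 17 tested genes of histone mRNA processing 8 were lower and 1 higher after 18 h, with Slbp at -0.72 ± 0.12 (edgeR adjusted p = 5.75e-05) and the processing endonuclease Cpsf3 at -0.37 ± 0.06 (adjusted p = 1.36e-05). After 3 weeks 9 of 16 were lower and 1 higher. Of 10 replication-independent histone genes, 5 were lower and 1 higher after 18 h (median -0.44), and 3 lower and 2 higher after 3 weeks (median 0.12). The higher one after 18 h was H2afx, a histone gene whose mRNA can end in either form, at 1.26 ± 0.15 (edgeR adjusted p = 4.8e-07).

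Marker lists of other liver cells were read beside the furan comparisons. Of 8 sinusoidal endothelial markers 1 fell with furan in frozen and 5 in FFPE 18 h tissue, against 1.2% and 7.72% of all tested genes. Their summed level was 577 to 615 CPM in furan and 745 to 755 CPM in control frozen libraries, without overlap. By edgeR 0 of 10 Kupffer cell and macrophage, 0 of 9 lymphocyte, 0 of 8 stellate and 0 of 5 bile duct markers that could be tested were called in frozen tissue, with 0 in each list at an unadjusted p below 0.05 and 0 called by DESeq2. Summed macrophage markers were 489 to 545 CPM in furan and 477 to 986 CPM in control frozen libraries, and lymphocyte markers 31.9 to 34.8 and 26.8 to 54.4 CPM. Neutrophil markers were at 1.13 to 1.63 CPM in furan and 1.09 to 1.797 CPM in control frozen libraries. The 4 haemoglobin genes listed (Hba-a1, Hba-a2, Hbb-b1 and Hbb-b2) were at 0 in every group. Over the 7 genes of the erythroid list in the table, the summed level was 32.2 to 37.6 CPM in furan and 32.2 to 43.3 CPM in control frozen libraries. The haemoglobin zeros therefore do not show that red blood cells were absent. The part of these cell types in the histone results was not tested.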

How the data were processed

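Ribosomal-RNA-depleted liver RNA (TruSeq Total RNA, HiSeq 2000) was measured in 6 groups of 4 libraries. The deposited table holds raw counts per gene symbol. The submitters' processing notes list CASAVA 1.8.2, STAR 2.3.0, featureCounts 1.4.4 and mm9; strand and multi-mapping settings are not given in the sources used here. Members and gene lists were chosen with earlier results of these data known. Genes named were the members called with furan, the 6 of highest mean CPM, the testis-type members and, per fixation comparison, up to 3 called members without overlap in each direction; Hist2h2bb and others at the threshold were named after their values were seen. Counts were tested in R 4.3.3 with edgeR 4.0.16 (TMM, filterByExpr, robust quasi-likelihood test, two-sided). Furan was compared within each preservation, and preservations over both treatments. Alternatives were DESeq2 1.42.0 (size factors, test), no filter, all 24 libraries, thinning to 5560002 counts, each library left out, and a replicate block. The numbers pair pieces of the same animal; deviations from group means correlated at 0.03 to 0.25 for FFPE 18 h with frozen, 0.02 to 0.09 for FFPE 3 weeks with frozen and -0.01 to 0.08 for FFPE 3 weeks with FFPE 18 h. Scripts were tested on simulated data. Motifs and stem-loops were read from RefSeq (GRCm38.p6) and GENCODE vM21, another build than mm9, and used for sequence and length only.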

Additional observations from a re-analysis of the deposited data

Results flagged for a closer look

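Among groups of 4 libraries, 28 of 163 had a library far from the other 3. The rule used flags about 1 in 20 groups by chance when values are normally distributed, which low counts are not. A group with counts in a single library is always flagged, and class sums reuse the same genes. The number flagged can therefore not be set against that rate. The frozen library of control animal 3 was high for Hist1h1c (72.9 CPM, others 8.55 to 16.7), Hist1h1d (25.3, others 3.09 to 6.00), Hist1h2ac (2.00, others 0.322 to 0.522) and Hist1h2be (2.41, others 0.744 to 0.957), and its FFPE 18 h library was high for Hist1h2be (1.41, others 0.371 to 0.459).

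In frozen furan tissue, Hist1h1b was low in animal 41 (1.84 CPM, others 2.23 to 2.28) and summed H2B was low in animal 42 (72.2, others 85.7 to 86.3). In FFPE 18 h tissue, animal 41 was high among furan livers for Hist1h1d (7.27, others 3.29 to 3.50) and summed H1 (53.1, others 34.9 to 36.8), and animal 42 was low for Hist1h2bb (0.278, others 0.578 to 0.603). Control animal 6 was low in FFPE 18 h tissue for Hist1h1c (4.15, others 8.38 to 8.97), Hist1h1e (19.2, others 25.7 to 26.3), Hist1h2bc (31.7, others 38.7 to 39.7) and summed H2B (42.5, others 48.2 to 49.1).

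In FFPE 3 weeks tissue single libraries were high. Furan animal 43 had Hist1h2ac at 0.281 CPM, Hist1h2ba at 0.0936 and Hist1h2be at 5.33, and furan animal 41 had Hist1h4a at 1.24, with the others at 0. Control animal 2 had Hist1h1b at 1.85, Hist1h3f at 0.925, Hist1h4a at 1.68 and Hist1h4i at 0.925, and control animal 6 had Hist1h2ba at 0.215, Hist1h2bb at 0.322 and Hist2h2bb at 2.36, with the others at 0. Control animal 6 also had Hist4h4 at 1.18 (others 0 to 0.0841). Control animal 4 had Hist1h1a at 4.88 (others 0 to 0.107) and Hist1h4h at 3.59 (others 0.925 to 1.29).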

How the results depend on the processing

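Members called with furan in frozen tissue numbered 2, against 1 without the low-count filter, 4 by DESeq2, 0 in a fit over all 24 libraries, 0 after thinning to equal depth, and 0 to 4 with a library left out. In FFPE 18 h tissue there were 3, against 5 by DESeq2, 0 over all 24 libraries and 0 to 7 with a library left out, and in FFPE 3 weeks tissue 0, against 2 over all 24 libraries. Members lower after 18 h than in frozen tissue numbered 17, against 8 over all 24 libraries, 9 after thinning and 10 to 15 with an animal left out. After 3 weeks they numbered 13, against 8 after thinning (15 members tested) and 11 to 14 with an animal left out. Between the fixation times they numbered 4, against 7 over all 24 libraries and 3 to 5 with an animal left out. With the animal as a replicate block the 3 counts of members lower were 14, 14 and 5, and the block moved no count by more than 1.5 times. Calls on 5 members, Hist1h2bb, Hist1h4b and Hist1h4c after 18 h and Hist1h3a and Hist1h3f after 3 weeks, did not hold with the replicate block. No called result changed direction under any setting run, but estimates near 0 did. With a library left out, furan in frozen tissue gave -0.82 to 0.59 for Hist1h1c, -0.35 to 1.06 for Hist1h1d (0.023 after thinning) and -0.40 to 0.069 for Hist1h1e, each highest without control animal 3. With an animal left out, the difference of the furan effect between FFPE 18 h and frozen tissue was -0.37 to 0.24 for Hist1h1a (1.13 after thinning), -0.87 to 0.0035 for Hist1h1b and -0.21 to 0.018 for Hist1h2bc, and Hist2h2be after 18 h was at -0.058 to 0.11 (-0.0037 without the filter). The median log2 change of all genes lay off 0 by more than 0.1 in 6 cases, at 0.135 (18 h against frozen, DESeq2), 0.147, -0.130 and -0.166 (3 weeks against frozen, by DESeq2, without the filter and with the block) and -0.172 and -0.185 (between the fixation times, without the filter and with the block). The causes were not tested. Thinning leaves 8 to 15 members tested. Depth limits low members, above all in FFPE 3 weeks tissue.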
